A study of Mus musculus with 12 samples.

Results

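The 79 genes described here encode the cytosolic ribosomal proteins of primary mouse hepatocytes. They were chosen by symbol (names beginning with Rpl or Rps and a number, and Rpsa, Rplp0, Rplp1 and Rplp2, leaving out names ending in -ps with a number and ribosomal S6 kinases) and by a mean of at least 50 TPM (a length-corrected share of the transcripts of a library) in WT hepatocytes. Of 55450 gene identifiers, 90 had such a symbol, 79 of these reached the minimum and 11 did not. GENCODE M21 lists all 79 as protein-coding, and 6 of the 11 (Rps4l and Rps12l1 among them) as pseudogenes. Of the 79, 32 encode proteins of the small subunit and 47 encode proteins of the large subunit.

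Polyadenylated RNA was measured in 12 libraries, 3 in each of 4 groups, to compare hepatocytes with and without the liver transcription factor Cebpa and hepatocytes given extra Cebpa. KO hepatocytes (CebpaΔAlb) carried floxed Cebpa alleles deleted by Cre, which the albumin promoter expresses in hepatocytes, and WT hepatocytes (Cebpafl/fl) carried the same floxed alleles without Cre. OE hepatocytes received an adenovirus with mouse Cebpa (Ad-m-Cebpa), and GFP hepatocytes received an adenovirus with green fluorescent protein (Ad-GFP); the labels give no Cebpa genotype and no time after infection for these cells, and the study states WT hepatocytes and a time for cultures treated with these viruses without naming the RNA-Seq libraries. The study used male mice, and the labels call the libraries biological replicates without naming the mouse or culture, so the p values measure only the spread between these libraries. Each library held between 20160081 and 23304230 estimated counts. Cebpa itself was at 0.09 to 0.54 TPM in KO and 123 to 175 TPM in WT libraries, and at 9924 to 10733 TPM in OE and 29.3 to 33.7 TPM in GFP libraries.

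Each ribosome is built from a small subunit, which reads the mRNA, and a large subunit, which joins amino acids, and nearly every ribosomal protein is present in 1 copy per ribosome. The mRNAs of these proteins are short and abundant, and most begin with a C followed by a run of pyrimidines, the 5′ terminal oligopyrimidine (TOP) tract, through which mTOR and the RNA-binding protein Larp1 control their translation and stability. Hepatocytes, which export large amounts of plasma protein, depend on a large ribosome pool, and ribosomal protein mRNAs are known to rise when cells enter growth.

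A run of pyrimidines near the annotated start is shown here for genes near both ends of the later comparison between OE and GFP. Such a run at the 5′ end is the sequence feature by which these mRNAs are known. Only genes in which a run was found could be shown, so Rpl17, with a higher fold change than Rpl37, is absent. RefSeq promoter windows, 250 bases before to 50 bases after the annotated start, were found for 59 of the 79 genes on GRCm38.p6, the assembly called mm10. Capitals mark a run of at least 8 pyrimidines that begins with C, on the strand of the gene. The stretches lie at chr10:128549119-128549138 (minus strand, Rpl41), chr1:72711275-72711304 (plus strand, Rpl37a), chr2:180257403-180257428 (plus strand, Rps21), chr15:5116632-5116661 (plus strand, Rpl37), chr7:118116143-118116172 (minus strand, Rps15a) and chr5:107900498-107900527 (plus strand, Rpl5).
Rpl41: tagcagtaggCCTCCCTCTC
Rpl37a: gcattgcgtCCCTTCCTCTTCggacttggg
Rps21: gcacgagctaCTTCCTTTCTgcgctc
Rpl37: gcgggggtgCTTTCTCTTCCggtctctttg
Rps15a: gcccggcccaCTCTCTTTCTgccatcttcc
Rpl5: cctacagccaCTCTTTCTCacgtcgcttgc

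None of the 6 runs began at the annotated start itself: those of Rpl41, Rpl37a, Rps21 and Rpl37 began at positions 41, 25, 35 and 29 counted from it, and those of Rps15a and Rpl5 began 15 and 20 bases before it. Whether they are the 5′ ends of these mRNAs was not tested. Such a run lay within 50 bases of the annotated start in 50 of the 59 genes (84.75%), against 31.82% of the 10948 genes with a window that were tested in OE and GFP and 31.99% of all 27025 RefSeq genes with one. The letters CTCTTTC, searched on the gene's strand in the same stretch, were found in 12 of 59 (20.34%), against 1.62% of all RefSeq genes; this motif can lie within such a run, as it does in Rps15a and Rpl5. Over the whole 300 bases and on both strands, CCGGAAG, the core bound by GABP and other ETS factors, was found in 25 of 59 (42.37%), against 19.06% of the genes tested and 9.93% of all RefSeq genes. AAGATGG, the core of YY1 sites, was found in 9 of 59 (15.25%), against 8.09% of the genes tested and 7.28% of all. TTNNGCAA, a form of the C/EBP motif, was found in 4 of 59 (6.78%), against 10.45% of the genes tested and 12.2% of all. These shares describe letters in the windows and not binding.

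The level of the whole group differed most between the pair of KO and WT and the pair of OE and GFP. The 79 genes summed to 1.96%, 2.39% and 2.35% of all TPM in KO libraries and to 2.76%, 2.46% and 2.32% in WT libraries. In the adenovirus experiment they summed to 8.60%, 8.75% and 8.54% in OE libraries and to 10.2%, 10.6% and 10.5% in GFP libraries. KO and WT libraries overlapped, whereas each OE library lay below each GFP library. As a share of estimated counts, which does not correct for length, the same genes held 0.752% to 0.947% in KO, 0.888% to 1.08% in WT, 2.60% to 2.68% in OE and 3.54% to 3.68% in GFP libraries.

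**Figure D1:**
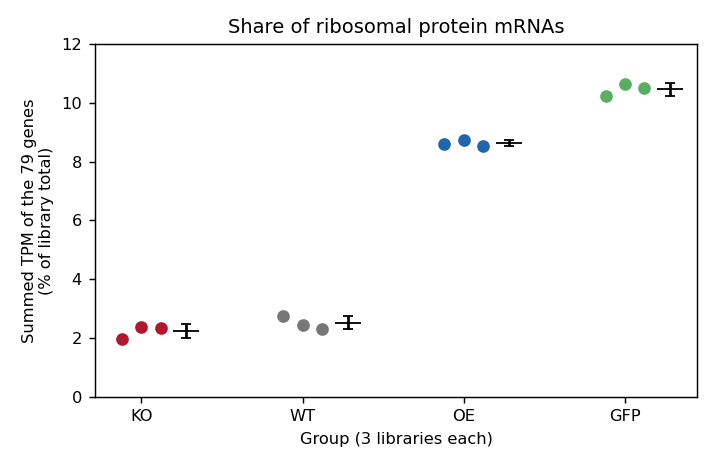
Summed TPM of the 79 ribosomal protein genes as a percent of each library's TPM, by group (dots, 3 libraries each; dashes with bars, mean ± SD). KO (1.96 to 2.39%) and WT (2.32 to 2.76%) libraries overlap, and OE libraries (8.54 to 8.75%) lie below GFP libraries (10.2 to 10.6%).

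All 79 genes had a higher mean TPM in GFP than in WT hepatocytes, by a median factor of 4.025. No share of all genes is set beside this count, so it does not show a trait particular to these genes. The smallest ratio was that of Rpl36al (1.46), a paralogue of Rpl36a in the large subunit, and the largest that of Rps20 (7.25), a small subunit protein of the head. Rps20 was at 856, 910 and 847 TPM in GFP libraries, against 136, 114 and 110 TPM in WT libraries. Rpl36al was at 501, 540 and 508 TPM in GFP libraries, against 368, 332 and 364 TPM in WT libraries. No ribosomal protein gene was among the 100 genes of highest mean TPM in KO or WT hepatocytes, whereas 29 were in OE and 30 in GFP hepatocytes. The first of them by rank was Rps2 in KO (rank 124) and WT (rank 117) and Rplp1 in OE (rank 19) and GFP (rank 23). GFP and WT hepatocytes differed in virus, and any difference in culture or preparation cannot be told apart from it, so no test was made.

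Liver-specific RNA also differed between these pairs. A list of 10 hepatocyte markers (among them Alb, Ttr and Apoa1) summed to 94824 to 107976 TPM in KO and 86805 to 91466 TPM in WT libraries, but to 12176 to 12576 TPM in OE and 20682 to 21380 TPM in GFP libraries. Albumin led each of these sums. In KO against WT only Alb and Fgb of the 10 had a higher mean and the other 8 a lower one, and the sum without Alb was 28222 to 34262 TPM in KO, against 33127 to 37064 TPM in WT libraries. In OE against GFP, Fgb and Cps1 had a higher mean and the other 8 a lower one. The 10 genes of highest count took 22.2 to 23.3% of counts in KO, 19.1 to 19.4% in WT, 5.07 to 5.18% in OE and 7.24 to 8.03% in GFP libraries. TPM is a share of each library, and the part of these genes in the levels of the ribosomal protein genes was not tested. In bulk RNA, fewer cells of a type and less RNA per cell cannot be told apart.

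Among themselves the 79 genes kept much the same order of abundance across the groups. In WT hepatocytes the 5 highest by TPM, a unit already divided by effective length, were Rps2, Rplp1, Rpl10, Rpl13a and Rps29. Rps2, a protein at the mRNA entry of the small subunit, was at 855, 901 and 822 TPM in KO, 951, 922 and 866 TPM in WT, 2608, 2622 and 2546 TPM in OE and 3268, 3335 and 3380 TPM in GFP libraries. Rplp1, an acidic protein of the large subunit stalk that recruits elongation factors, was at 740, 808 and 822 TPM in KO, 923, 871 and 777 TPM in WT, 2692, 2794 and 2649 TPM in OE and 3679, 3839 and 3873 TPM in GFP libraries. Both were lower in every OE library than in any GFP library, and both overlapped between KO and WT.

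The lowest of the 79 genes in WT was Rpl5 (104 ± 13 TPM, SD, n = 3), followed by Rpl27 (117 TPM) and Rps20 (120 TPM), so the minimum of 50 TPM fell in a gap. Just outside it were Rpl7l1 (43.8 TPM), Rpl22l1 (42.8 TPM) and Rps4l (23.99 TPM). Within a library the highest member exceeded the lowest by 8.15 to 11.1 times in KO, 8.04 to 9.85 times in WT, 6.47 to 6.87 times in OE and 8.05 to 8.29 times in GFP. The coefficient of variation between members was 48.7 to 54.7% in KO, 47.0 to 48.8% in WT, 42.1 to 42.9% in OE and 47.9 to 49.3% in GFP libraries, so mRNA levels were uneven in every group, with the lowest values in OE. Ranks over the 79 genes had a Spearman correlation of 0.988 between KO and WT, 0.926 between OE and GFP and 0.835 between GFP and WT means. These points share libraries and gene length, and the values are a description.

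**Figure D2:**
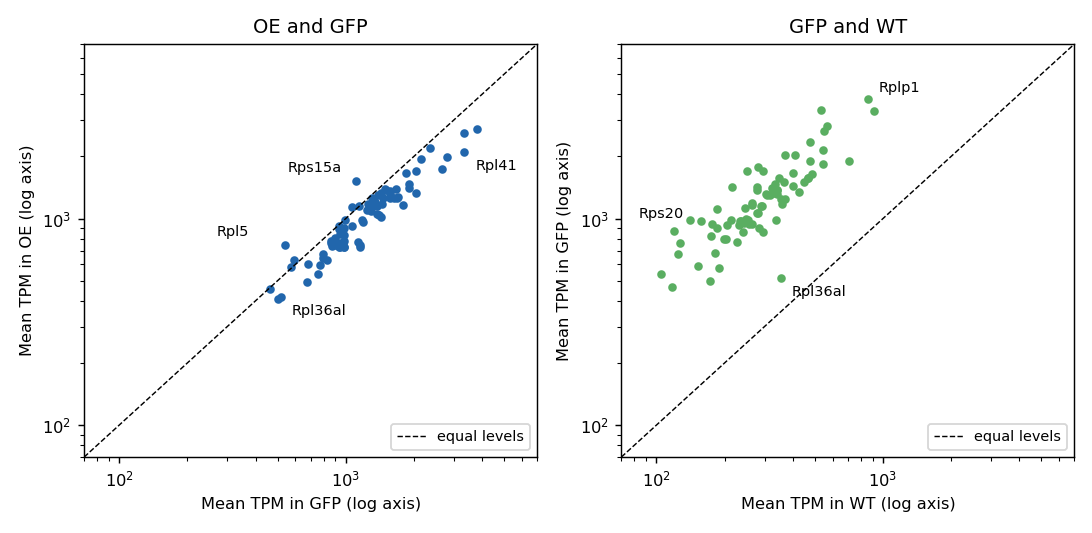
Mean TPM of each of the 79 genes (dots, n = 3 libraries per mean, log axes) in OE against GFP hepatocytes and in GFP against WT hepatocytes, with a dashed line of equal levels. All 79 lie above the line in GFP against WT, where Rpl36al is nearest to it, and 6 lie above it in OE against GFP, with Rpl5 and Rps15a farthest above.

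Deletion of Cebpa left these mRNAs without a single call, although nearly all of their fold changes lay slightly below 0. In KO against WT hepatocytes, 75 of the 79 genes had a log2 fold change below 0 and 4 (Rpsa, Rplp2, Rpl10a and Rpl36al) above 0, with a median of -0.13 (0.91-fold) and a range of -0.36 to 0.04, beside a median of 0.01 over all 11846 genes tested. By edgeR's quasi-likelihood test 0 of 79 passed an adjusted p of 0.05, and 0 had an unadjusted p under 0.05; DESeq2 and limma on TPM also called 0. The lowest adjusted p was 0.365 (Rpl31). Over all genes tested, 0.692% were called higher and 1.02% lower. In 2 of the 79 genes all KO libraries lay below all WT libraries, beside 10.4% of all genes tested. The biological coefficient of variation in this comparison was 20.4%, and the standard errors of the members ran between 0.09 and 0.25 on the log2 scale, so changes of the size of the median were not detectable for single genes.

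The 5 lowest log2 fold changes in KO hepatocytes belonged to Rps27l, Rpl17, Rps23, Rps25 and Rpl13a. Rps27l, a p53-inducible paralogue of Rps27, had 35.7, 57.5 and 61.6 CPM (counts per unit of library size, scaled by edgeR's TMM factors) in KO libraries, against 72.5, 67.7 and 58.5 CPM in WT libraries, or -0.36 ± 0.21 on the log2 scale (± SE, adjusted p = 0.477). The first KO library was the low one, and the third lay above the lowest WT library. Rpl17, which lines the peptide exit tunnel, had 70.8, 115 and 107 CPM in KO libraries, against 136, 121 and 103 CPM in WT libraries (log2 fold change -0.30 ± 0.20). Rps23, near the decoding site, had 58.9, 89.1 and 77.8 CPM in KO libraries, against 104, 91.8 and 81.9 CPM in WT libraries (-0.30 ± 0.17). Rps25 and Rpl13a stood at -0.29 ± 0.18 and -0.28 ± 0.18, with the same library lowest.

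At the other end, Rpsa, a small subunit protein also described as a laminin receptor, had 260, 320 and 304 CPM in KO libraries, against 311, 288 and 259 CPM in WT libraries, a log2 fold change of 0.04 ± 0.13. Rplp2, the partner of Rplp1 in the stalk, had 83.3, 104 and 88.7 CPM in KO libraries, against 90.9, 91.9 and 87.8 CPM in WT libraries (0.03 ± 0.11). Rpl10a (0.03 ± 0.10) and Rpl36al (0.01 ± 0.11) overlapped between the groups in the same way, and Rps29 followed at -0.004 ± 0.13. The sign of these highest values changed with the scaling or with the library left out.

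Much of the spread in this comparison came from single libraries. The first KO library was the lowest of the KO libraries in 72 of the 79 genes, beside 32.63% of all genes tested, and the first WT library was the highest of the WT libraries in 74 of 79, beside 32.95%. Against the mean of WT, the median member lay at -0.31 in the first KO library, 0.001 in the second and -0.09 in the third on the log2 scale. The WT libraries lay at 0.12, 0.02 and -0.14 on the same scale, so the range among WT libraries was larger than the difference between the groups. Other genes with an effective length under 500 bases also lay lower in the first KO library, with a median of -0.19. Without that library the median of the 79 genes was -0.05 and 16 of them were above 0, with 0 called.

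Nearly all ribosomal protein mRNAs were lower in OE than in GFP hepatocytes, against a background in which most genes changed. By edgeR's quasi-likelihood test 77 of 79 were called lower and 2 higher at an adjusted p under 0.05, while of all 14889 genes tested 42.7% were called lower and 43.9% higher. The median log2 fold change of the members was -0.58 (0.67-fold) with a range of -0.99 to 0.13, beside a median of 0.01 over all genes tested. No member passed a 2-fold change, beside 42.1% of all genes tested, and 51 of 79 were called with a log2 fold change below -0.5, beside 31.6% of all genes. All OE libraries lay below all GFP libraries in the same number of genes, 77 of 79, beside 42.9% of all genes tested. Libraries of a group were close, with a biological coefficient of variation of 4.04% and standard errors of 0.03 to 0.04 for the members.

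**Figure D3:**
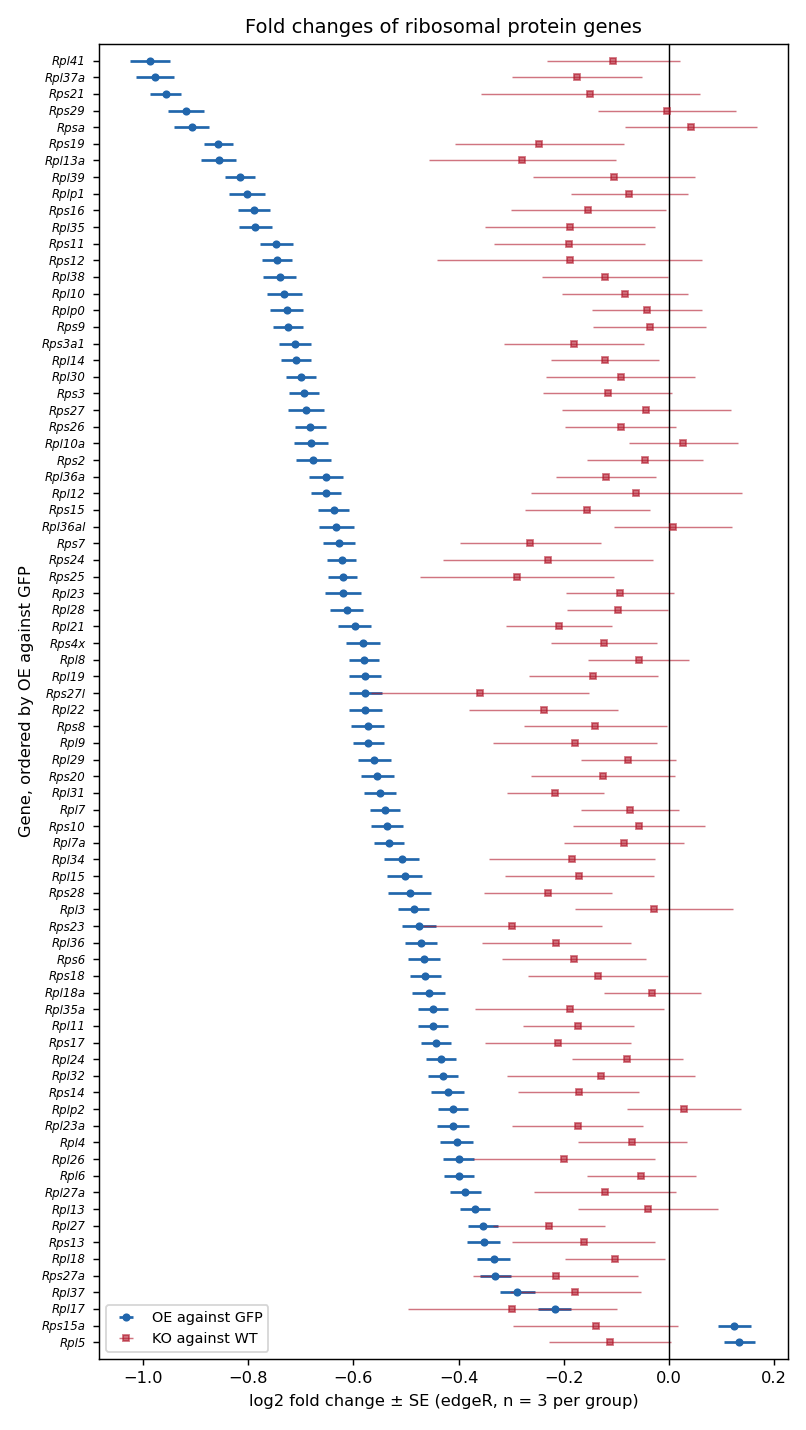
Log2 fold change (± SE, edgeR, 3 libraries per group) of 78 of the 79 genes in OE against GFP hepatocytes (circles) and KO against WT hepatocytes (squares), ordered by OE against GFP. In OE against GFP 76 of those drawn lie below 0 and only Rps15a and Rpl5 above it, and in KO against WT 74 of them lie below 0.

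Genes of both subunits were lower in OE hepatocytes. Of the small subunit genes 31 of 32 were called lower (median log2 fold change -0.62), and of the large subunit genes 46 of 47 (median -0.55). Of all genes tested, 42.7% were called lower. Among KO and WT hepatocytes the medians were -0.15 for the small and -0.11 for the large subunit, with 0 called in either. The summed TPM of the small subunit over that of the large subunit was 0.72 to 0.77 in KO and 0.74 to 0.77 in WT libraries, and 0.77 in each OE library, against 0.79 to 0.80 in GFP libraries.

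The lowest fold change belonged to Rpl41, which encodes a very short, basic peptide of the large subunit. It had 331, 350 and 318 CPM in OE libraries, against 634, 670 and 677 CPM in GFP libraries, or -0.99 ± 0.04 on the log2 scale (adjusted p = 5.06e-12). Rpl37a, a zinc-binding protein of the large subunit, had 148, 158 and 143 CPM in OE libraries, against 288, 299 and 296 CPM in GFP libraries (-0.98 ± 0.04). Rps21, of the small subunit, had 86.2, 85.9 and 85.1 CPM in OE libraries, against 168, 171 and 161 CPM in GFP libraries (-0.96 ± 0.03). In each of these the highest OE library was far below the lowest GFP library. Rps29, a short zinc-binding protein of the small subunit head, stood at -0.92 ± 0.03.

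Rpl5 and Rps15a ran the other way. Rpl5, which carries 5S rRNA into the large subunit with Rpl11 and, free of the ribosome, binds the p53 ligase Mdm2, had 465, 467 and 456 CPM in OE libraries, against 433, 423 and 409 CPM in GFP libraries, which came to 0.13 ± 0.03 on the log2 scale (adjusted p = 0.000747). Rps15a, of the small subunit, had 240, 235 and 230 CPM in OE libraries, against 218, 221 and 208 CPM in GFP libraries, or 0.12 ± 0.03 on the log2 scale (adjusted p = 0.00216). In both the OE and GFP libraries did not overlap, and the steps were small beside those of Rpl41. In TPM, Rpl5 was at 738, 749 and 746 in OE libraries, against 533, 551 and 541 in GFP libraries. In a single fit of all 12 libraries neither was called higher.

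The smallest decreases were those of Rpl17, Rpl37 and Rps27a. Rpl17 had 378, 375 and 352 CPM in OE libraries, against 428, 428 and 429 CPM in GFP libraries (log2 fold change -0.22 ± 0.03). Rpl37, a zinc-binding protein of the large subunit, had 164, 164 and 158 CPM in OE libraries, against 201, 204 and 189 CPM in GFP libraries (-0.29 ± 0.03). Rps27a, made as a fusion with ubiquitin, had 344, 338 and 345 CPM in OE libraries, against 425, 445 and 421 CPM in GFP libraries (-0.33 ± 0.03). These 3 genes were lower in each OE library on this scale, but the sign of all 3 turned on TPM and after removal of the length trend, where Rpl17 was called higher both times and Rpl37 after removal of the trend.

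**Figure D4:**
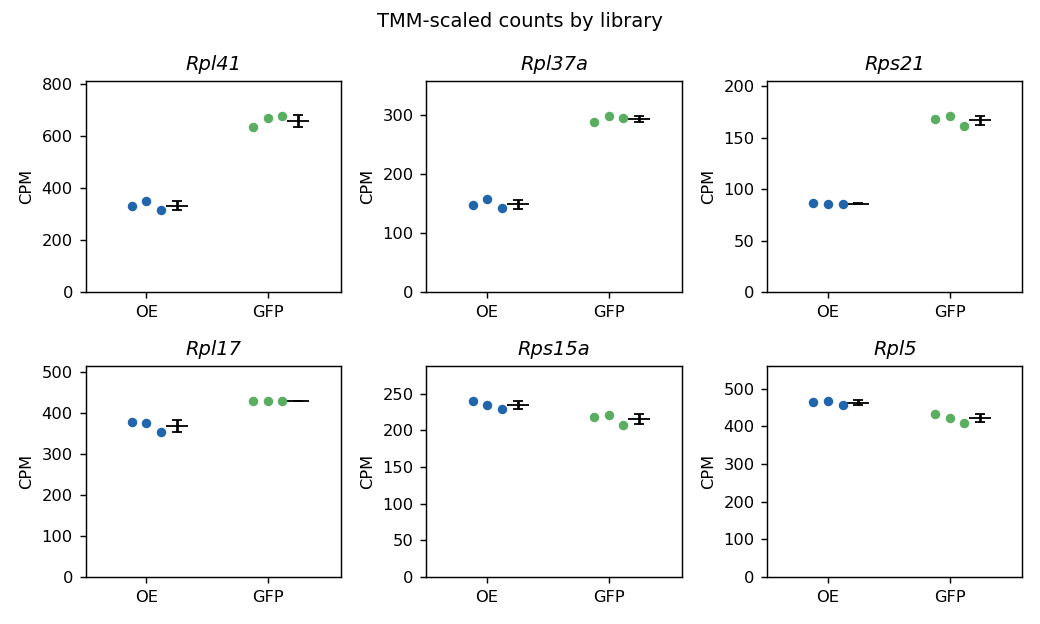
TMM-scaled CPM of Rpl41, Rpl37a, Rps21, Rpl17, Rps15a and Rpl5 in each OE and GFP library (dots), with the mean ± SD of 3 libraries, on axes that start at 0. The OE libraries lie below the GFP libraries for Rpl41 (318 to 350 against 634 to 677 CPM), Rpl37a, Rps21 and Rpl17, and above them for Rps15a (230 to 240 against 208 to 221 CPM) and Rpl5.

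The stalk of the large subunit and Rpsa, the members without a number in the usual form, changed by unequal amounts. Rpsa was at 803, 802 and 762 CPM in OE libraries, against 1458, 1491 and 1490 CPM in GFP libraries (log2 fold change -0.91 ± 0.03). Rplp1 stood at -0.80 ± 0.03 and Rplp0, the stalk base, at -0.73 ± 0.03. Rplp2 was lowered least of the stalk proteins, at -0.41 ± 0.03, with 343, 345 and 329 CPM in OE libraries, against 457, 450 and 445 CPM in GFP libraries.

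Paralogue pairs in which both genes are members were lowered together in OE hepatocytes. Rps27 stood at -0.69 ± 0.03 and Rps27l at -0.58 ± 0.03 (OE against GFP), and Rpl36a at -0.65 ± 0.03 and Rpl36al at -0.63 ± 0.03. The related genes below the minimum had higher fold changes than their main genes, a difference that was not tested. Rps4l, which GENCODE M21 lists as a transcribed processed pseudogene, had 88.2, 89.4 and 84.8 CPM in OE libraries, against 53.1, 56.1 and 55.2 CPM in GFP libraries, or 0.67 ± 0.04 on the log2 scale (adjusted p = 3.38e-10), whereas Rps4x, the X-linked main gene, stood at -0.58 ± 0.03. Rpl7l1, related to Rpl7, stood at -0.02 ± 0.03 (adjusted p = 0.461), whereas Rpl7 stood at -0.54 ± 0.03. This pair differed in effective length (1774.6 bases for Rpl7l1 and 920.6 bases for Rpl7), with which fold changes varied in this comparison, as given below. Rpl22l1 stood at -0.24 ± 0.04, beside Rpl22 at -0.58 ± 0.03. The tissue-restricted copies Rpl3l and Rpl39l reached at most 0.21 and 0.38 TPM in any library, and Rpl10l was listed at 0 in all. Members of a pair share sequence, so reads may have been divided between them with error.

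Transcript length ran through both comparisons. The effective length (the number of positions at which a fragment can start) had a median of 488 bases in the members, between 164 (Rps27) and 1343 (Rpl4), with 42 of 79 under 500 bases. The 13226 genes with a mean of at least 1 TPM had a median of 2050.0 bases, and 1024 of them were under 500 bases. In OE against GFP, genes outside the group had a median log2 fold change of -0.49 under 500 bases, -0.39 between 500 and 1000, -0.10 between 1000 and 2000, 0.14 between 2000 and 4000 and 0.38 at 4000 bases or more. The members had medians of -0.58 (42 genes), -0.58 (31 genes) and -0.44 (6 genes) in the first 3 of these classes, below the other genes of the same length. Of the 630 other genes under 500 bases, 52.7% were called lower, beside 41 of the 42 members of that length.

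In KO against WT other genes under 1000 bases also had medians below 0, on a smaller scale and without a steady rise through the classes, with medians of -0.09, -0.06, 0.001, 0.04 and 0.02 for other genes in the 5 length classes and -0.16, -0.12 and -0.05 for the members. Within the group, length and fold change were weakly related, with a Spearman correlation of 0.085 in OE against GFP and 0.227 in KO against WT over 79 genes that share libraries, given as a description. When the trend of counts with length was removed from each library, 58 members remained lower in OE hepatocytes, 4 were called higher (Rpl5, Rps15a, Rpl17 and Rpl37), 17 were no longer called and the median was -0.23. The distance between the member median and the median of all genes was then -0.20, against -0.58 in the main edgeR fit. In KO hepatocytes the median was then -0.06, with 17 above 0 and 0 called.

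**Figure D5:**
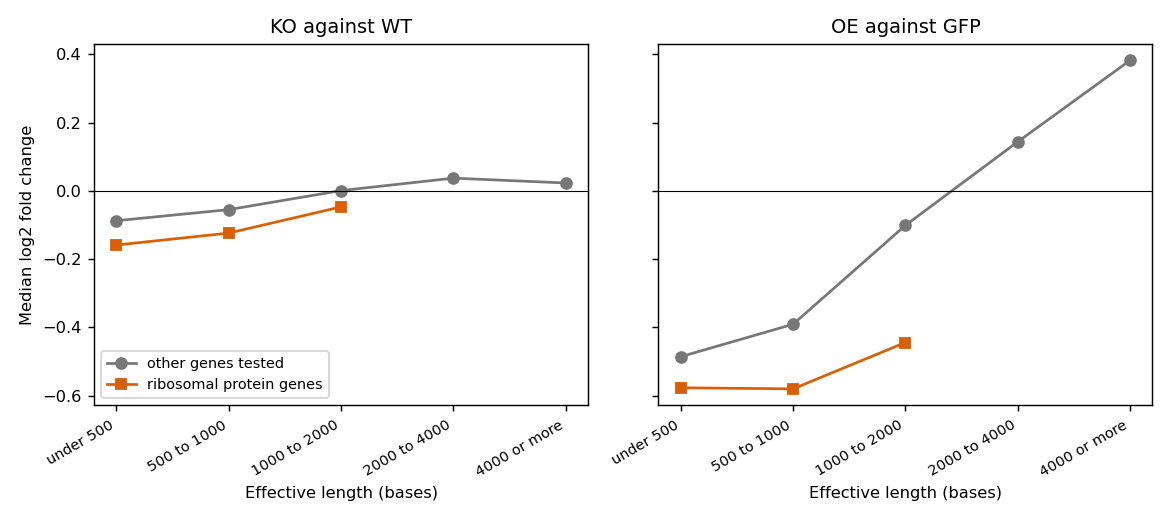
Median log2 fold change by effective length in bases for ribosomal protein genes (squares) and all other genes tested (circles) in KO against WT and OE against GFP hepatocytes. Other genes run between -0.49 (under 500 bases) and 0.38 (4000 bases or more) in OE against GFP, and the members lie below them in each of the 3 classes they occupy.

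The choice of scale mattered for the size of the decrease. On TPM, where the median of all genes itself moved to 0.27 in OE against GFP (limma on log2(TPM + 1)), 69 members were called lower and 3 higher (Rpl5, Rps15a and Rpl17), with a member median of -0.26. The distance between the member median and the median of all genes was -0.58 in the edgeR fit and -0.53 on TPM. With library totals in place of scaling factors the median of all genes was 0.14 (log2) and that of the members -0.44.

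Other genes of ribosome production were read from lists of their known members, to be set beside the 43.9% of all genes tested that were called higher and the 42.7% called lower in OE hepatocytes. Of 22 translation factors and other TOP mRNAs, 16 were called lower and 3 higher in OE hepatocytes (median log2 fold change -0.43). Tpt1, a growth-related TOP mRNA, averaged 920 ± 14 CPM in OE and 1990 ± 23 CPM in GFP libraries (SD, n = 3 each; log2 fold change -1.11 ± 0.03). Eef1b2, an exchange factor of elongation factor 1, stood at -1.09 ± 0.03, Eif3l, a subunit of initiation factor 3, at -0.998 ± 0.03 and Gas5, a noncoding TOP transcript that hosts small nucleolar RNAs, at -1.53 ± 0.04. In KO hepatocytes 0 of 22 were called (1 at an unadjusted p under 0.05, Eif3h, -0.25 ± 0.09), with a median of -0.11.

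Of 40 ribosome biogenesis factors, 26 were called higher and 10 lower in OE hepatocytes (median 0.20), and the all-gene shares are again 43.9% and 42.7%. The median effective length of this list was 1952 bases. Of genes other than ribosomal protein genes, 39.54% were called higher and 46.6% lower between 1000 and 2000 bases. Between 2000 and 4000 bases these shares were 49.43% and 39.04%, with a median of 0.14. Brix1, an assembly factor of the large subunit, averaged 199 ± 3.4 CPM in OE and 80.8 ± 1.0 CPM in GFP libraries (log2 fold change 1.30 ± 0.03), and Dcaf13 and Rrs1, both nucleolar, stood at 1.15 ± 0.04 and 0.95 ± 0.03. Nhp2, a core protein of H/ACA small nucleolar particles with a short mRNA, stood at -1.26 ± 0.04. Of 15 genes of RNA polymerase I and its factors, which transcribe rRNA, 8 were called higher and 4 lower (median 0.15). Taf1c (1.03 ± 0.07), Taf1b (0.91 ± 0.06) and Twistnb (0.76 ± 0.04) were among those higher, and Ubtf, the upstream binding factor of the rRNA promoter, was lower (-0.87 ± 0.03).

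Of 78 mitochondrial ribosomal proteins, 46 were called lower and 20 higher in OE hepatocytes (median -0.24), among them Mrpl18 (-1.34 ± 0.04), Mrpl42 (-1.27 ± 0.05), Mrpl12 (-1.01 ± 0.03) and Mrpl45 (1.15 ± 0.03). The median effective length of this list was 849 bases, against 1952 bases for the biogenesis factors. Of genes other than cytosolic ribosomal protein genes between 500 and 1000 bases, 54.65% were called lower and 26.51% higher (median -0.39). Of 22 regulators of these mRNAs and of growth, 10 were called higher and 11 lower (median -0.07), shares near those of all genes. Eif4e, which binds the mRNA cap, averaged 362 ± 6.7 CPM in OE and 103 ± 0.41 CPM in GFP libraries (log2 fold change 1.82 ± 0.03), and Eif4ebp2, which sequesters it, averaged 44.6 ± 3.2 CPM in OE and 183 ± 5.3 CPM in GFP libraries (-2.03 ± 0.04). Ddit4, an inhibitor of mTOR, stood at -2.11 ± 0.05 and Trp53, the gene of p53, at -1.46 ± 0.03.

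In KO hepatocytes 0 genes of these lists were called. At an unadjusted p under 0.05 there were 5 of 40 biogenesis factors, 0 of 15 polymerase I genes, 2 of 22 regulators and 2 of 78 mitochondrial ribosomal proteins, with medians of 0.17, 0.09, 0.03 and -0.01. Of all genes tested 13.9% had such a p, so none of these counts stood above the background. Heatr1, a factor of rRNA processing, had the lowest p of the biogenesis list (log2 fold change 0.43 ± 0.12, adjusted p = 0.155), and Gnl3, the nucleolar protein nucleostemin, stood at 0.47 ± 0.16. Ddit4 averaged 9.14 ± 4.9 CPM in KO and 23.4 ± 9.1 CPM in WT libraries (log2 fold change -1.35 ± 0.46, adjusted p = 0.255). Whether the fold changes in KO and in OE hepatocytes differ was not tested, since the comparisons come from different experiments.

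Markers of other cells were read in the same libraries. The summed TPM of 12 macrophage markers was 14.2 to 42.7 in KO, 3.58 to 23.96 in WT, 189 to 209 in OE and 174 to 198 in GFP libraries, with Clec4f, which marks Kupffer cells, at no more than 0.18 TPM in OE libraries and at 0 in GFP libraries. Cd68 made up nearly all of the sum in OE (195 TPM) and GFP (185 TPM), and the other 11 markers summed to 3.86 to 4.66 TPM in OE and 1.07 to 1.67 TPM in GFP libraries, each with a lower mean in GFP than in WT. The sum of 9 endothelial markers was 10.3 to 20.6 TPM in KO, 6.98 to 11.4 TPM in WT, 34.4 to 40.2 TPM in OE and 34.6 to 37.6 TPM in GFP libraries. Egfl7 led it in OE (mean 23.2 TPM) and GFP (21.8 TPM), against 1.38 TPM in WT. Without Egfl7 the sum was 14.2 to 15.3 TPM in OE and 13.1 to 14.8 TPM in GFP libraries. Between GFP and WT, 6 of the 9 had a higher mean in GFP and 3 (Kdr, Clec4g and Tie1) a lower one. For 10 stellate cell and fibroblast markers the sum was 4.81 to 7.82 TPM in KO, 1.99 to 4.36 TPM in WT, 20.1 to 22.3 TPM in OE and 7.27 to 7.58 TPM in GFP libraries. Of 7 bile duct markers the sum, led by Spp1 in all groups, was 363 to 488 TPM in KO, 7.47 to 16.0 TPM in WT, 28.7 to 30.6 TPM in OE and 93.2 to 100.04 TPM in GFP libraries. Without Spp1 it was 9.47 to 18.3 TPM in KO and 2.34 to 3.89 TPM in WT libraries. In OE and GFP libraries it was then 13.58 to 15.84 and 11.55 to 14.34 TPM. Between OE and GFP, 3 of the 7 (Epcam, Cftr and Sox9) had a higher mean in OE and 4 a lower one. The lymphocyte and neutrophil list reached 3071 to 3555 TPM in OE libraries, against 0.11 to 0.27 TPM in GFP libraries, through S100a8 and S100a9 alone, with Ptprc at 0 in OE libraries and Cd3e at 0 in all. The sum of 5 erythroid markers was 28.1 to 35.6 TPM in KO, 57.4 to 82.3 TPM in WT, 7.86 to 8.37 TPM in OE and 3.25 to 3.84 TPM in GFP libraries. Alas2 led this sum in all groups, and the haemoglobin genes together reached no more than 0.94 TPM in any library. That highest value was in the second GFP library, beside Alas2 at 2.69 TPM. The part of these cells in the levels of the ribosomal protein genes was not tested.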

How the data were processed

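Per the labels, poly(A) RNA was made into stranded mRNA libraries, and the authors' processing notes name Trimmomatic 0.36, STAR 2.5.1, Picard 1.84, RSEM 1.2.22 and DESeq2, with the build mm10. The authors deposited RSEM expected counts (estimated counts, not scaled to depth), TPM values (scaled by effective length and depth), and the length and effective length of each gene. All 55450 identifiers matched GENCODE M21.

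Expected counts were rounded and tested in each comparison (3 against 3 libraries) over all genes with edgeR 4.0.16 in R 4.3.3 (filterByExpr with a minimum count of 10, TMM scaling, quasi-likelihood test, Benjamini-Hochberg adjustment over all genes tested). The printed alternatives used DESeq2 1.42.0, limma 3.58.1 and other edgeR settings. The length trend was removed as a lowess offset (span 0.3) per library. The scripts were tested on simulated data with 200 changed genes and no length trend. Far more genes were called in OE against GFP, so the simulation does not cover that case. Total counts were 20160081 to 23304230 per library, which gives small counting error for genes at these levels.

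Ribosomal protein genes have many processed pseudogenes, to which reads may be assigned. The 297 rows named as numbered pseudogenes held counts equal to 1.76 to 2.29% of those of the 79 genes, and copies under other names were not counted. Motif letters were searched in RefSeq windows on GRCm38.p6.

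Named genes were the 5 highest in WT, the 5 lowest and 5 highest fold changes of each comparison, members called against the median, those next to the TPM minimum, stalk proteins and Rpsa, 8 paralogue pairs and, per list, the 4 of lowest p. Rpl31 and Rpl4 were named after their values were seen. One member named by this rule is not reported here, though it stays in all counts and medians. The members and lists were chosen with earlier results of these data known.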

Additional observations from a re-analysis of the deposited data

How the results depend on the processing

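In OE against GFP, all 79 ribosomal protein genes remained called, 77 lower and 2 higher, with DESeq2, DESeq2-type size factors, library totals, other filters, scaling without these genes and each library left out. Their median log2 fold change (-0.58) was -0.55 with DESeq2 and also with its size factors (-0.55), -0.44 with library totals, -0.53 with a stricter filter, -0.26 with limma on log2(TPM + 1) and also (-0.26) on log2(TPM + 0.1), -0.23 with the length trend removed, and between -0.60 and -0.54 with 1 library left out. Over all genes, 6531 were called higher and 6362 lower, against 7178 and 5673 with library totals and 7100 and 4093 with limma on log2(TPM + 1). The single fit of 12 libraries lost Rpl17, Rpl5 and Rps15a, and adding pseudogene counts lost Rpl27. With those counts the group summed to 8.92% of TPM in OE and 10.8% in GFP hepatocytes.

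Limits and turned signs are as follows. In OE against GFP, limma on log2(TPM + 1) and on log2(TPM + 0.1) gave 0.10 and 0.10 for Rpl17, 0.0931 and 0.0932 for Rpl37 and 0.0014 and 0.0014 for Rps27a, and removal of the length trend gave 0.15 for Rpl17, 0.10 for Rpl37, 0.047 for Rps27a and 0.0451 for Rpl27. In KO against WT, with 0 members called under each setting run, library totals gave -0.0207 for Rpl10a, -0.0424 for Rpl36al, -0.0221 for Rplp2 and -0.0074 for Rpsa. limma on log2(TPM + 1) and log2(TPM + 0.1) gave -0.042 and -0.0422 for Rpl10a, -0.0497 and -0.0499 for Rpl36al and -0.10 and -0.10 for Rplp2. Rpl36al stood at -0.0057 with no filter and -0.0085 in the fit of 12 libraries, and Rps29 at 0.10 with the length trend removed. With 1 library left out, values ran between -0.0309 and 0.0924 for Rpl10a, -0.0888 and 0.0792 for Rpl36al, -0.0654 and 0.0879 for Rplp2, -0.0963 and 0.0703 for Rps29 and -0.028 and 0.12 for Rpsa. The KO median ran between -0.21 (without the second KO library or the third WT library) and -0.05 (without the first KO library). The cause of these shifts was not tested.

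With the replicate number as a replicate block, 0 members were called in KO against WT (median -0.13) and 79 in OE against GFP (median -0.58). Samples of the same number correlated between -0.40 and 0.03 in KO and WT and between -0.07 and 0.04 in OE and GFP. With 3 libraries per group these values cannot show whether samples of the same number shared a mouse or culture.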
